A study of Mus musculus with 8 samples.

Results

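Tumours grown from Keap1 null fibroblasts were compared with tumours grown from wild-type (WT) fibroblasts. The comparison rests on 4 of the 8 arrays of the study, 2 of Keap1 null and 2 of WT allografts, all of which were chosen by their labels alone. The cells were mouse embryonic fibroblasts (MEFs), labelled TR in both lines, an abbreviation that the labels do not spell out. For the WT group, 10000000 WT TR MEFs were injected into nude (nu/nu) mice, and for the Keap1 null group 3000000 Keap1-/- TR MEFs. Tumours of both groups were harvested at a volume of 100 to 150 mm3, and each array received Cy3-labelled RNA made from 500 ng of the tumour's total RNA. The other 4 arrays, 2 of each line grown in culture dishes, served to sort genes by whether cultured cells showed a signal.

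Each genotype is represented by a single line, so genotype and line cannot be told apart, and the groups also differ in the number of cells injected. Nude mice lack a working thymus and therefore most T cells, but they keep macrophages, granulocytes, natural killer (NK) cells and B cells. A tumour's RNA holds both injected and host cells, and in such bulk samples fewer cells of a type and less RNA per cell cannot be told apart. Whether the replicate arrays come from separate mice is not stated, so the p-values measure only the spread between arrays. Fibroblast genes were high on all 4 allograft arrays: the log2 level of vimentin (Vim) was 6.90 and 7.11 in Keap1 null and 7.07 and 7.17 in WT tumours. Pdgfra and Thy1 were also well above background. Pdgfra was higher in Keap1 null tumours (log2 difference 1.43, limma, adjusted p = 0.00167), while Vim (-0.12) and Thy1 (-0.20) did not pass that test.

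KEAP1 is the adaptor that presents the transcription factor NRF2, the product of Nfe2l2, to a CUL3 ubiquitin ligase for degradation. When KEAP1 is lost or its cysteines are modified by electrophiles, NRF2 accumulates, pairs with small MAF proteins and switches on genes that make glutathione, neutralise quinones and carbonyls, export conjugates and supply NADPH. Loss of KEAP1 function occurs in several cancers, where persistent NRF2 activity goes with resistance to oxidants and drugs.

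Levels are given as log2 of an array's processed intensity minus the 75th percentile of that array, so a level of 0 is as bright as the 75th percentile. Levels of different genes come from different probes and are not compared with each other. The allograft arrays detected 69.8% to 74.7% of probes above background and the dish arrays 60.6% to 64.5%. No spot was saturated, and the replicates of each group correlated at 0.9912 to 0.9952. Differences are Keap1 null minus WT, with their standard error (SE) from a limma fit with 2 arrays in each group, and calls were made where the p adjusted by Benjamini-Hochberg lay under 0.05. With 2 arrays on each side, the smallest p that an exact permutation test can give is 0.33.

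Of 22922 targets tested, 4688 (20.5%) were higher and 4887 (21.3%) lower in Keap1 null tumours, with a median difference of 0.00. At least 2-fold changes made up 2097 of the rises and 2448 of the falls. The share of calls that were higher was 49.0%, and 30.5% in the deposited value table without scaling, whose median difference over all targets was -0.22. The other scalings gave shares of 42.0% to 48.4%, so the balance of rises and falls moved with the scaling. The arrays of the groups did not overlap for 35.8% of targets in the higher and 34.5% in the lower direction. These shares were 34.1% and 43.9% among targets that no dish array detected and 36.1% and 33.8% among those that all 4 detected. Among targets detected on 1 to 3 dish arrays they were 35.3% and 29.5%, and 18.2% and 16.5% were called higher and lower.

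Detection in dishes divided the targets. Among 2656 targets that no dish array showed above background, 527 (19.8%) were higher and 790 (29.7%) lower in Keap1 null tumours, with a median difference of -0.13. This excess of falls depended on the processing. With another background correction (normexp) 578 were higher and 447 lower, and without a filter on dim probes, which admits more targets, 887 and 889. Among 17960 targets well above background on all 4 dish arrays, 3741 (20.8%) were higher and 3716 (20.7%) lower, with a median of 0.01. The former class holds genes that the cultured cells did not show, whether they belong to host cells or were switched on in the injected cells after transfer. Of these, 452 were well above background on both WT and on neither Keap1 null allograft array, and 206 the other way round. The 1665 that were measured on all 4 allograft arrays comprised 261 called higher and 407 called lower, and their median difference was 0.01.

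**Figure D1:**
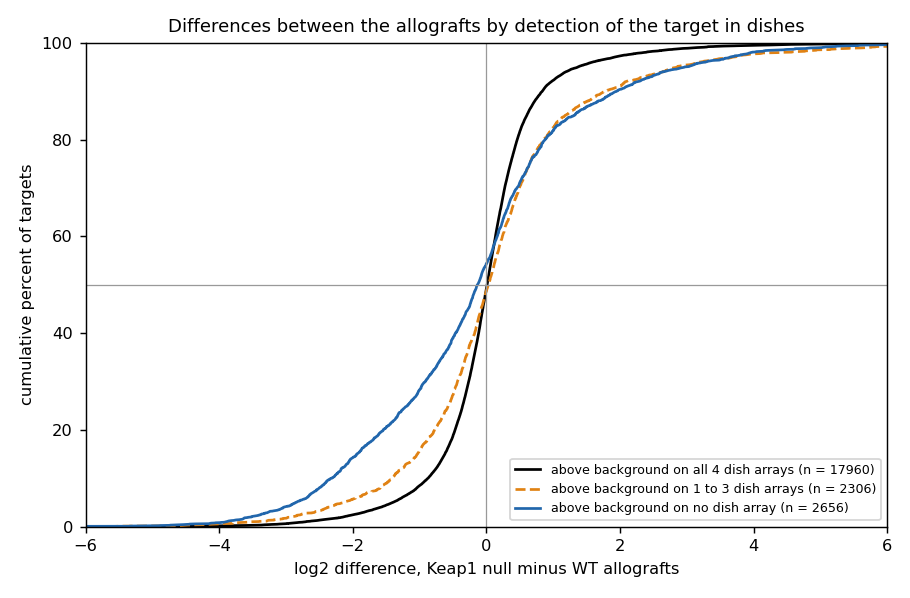
Cumulative percent of targets (vertical axis) against the log2 difference between Keap1 null and WT allografts (horizontal axis), 1 line for each class of detection on the dish arrays. The line of the 2656 targets above background on no dish array lies above the line of the 17960 targets detected on all dish arrays on the negative side, where 29.7% against 20.7% were called lower.

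The targeted gene and its partners were read next. Keap1 stood at 1.00 and 0.92 in Keap1 null tumours and at 2.85 and 2.46 in WT tumours, a fall of 3.23-fold with a signal left on every array; the files do not record whether the probe lies in the deleted part. Nfe2l2 was 1.52-fold higher, at 4.09 and 4.12 against 3.44 and 3.56, a call that ended in the unscaled table (adjusted p = 0.239). Its dimerisation partner Mafg was 2.21-fold higher and Cul3, the scaffold of the ligase, 1.61-fold, the latter not called in the unscaled table (adjusted p = 0.131). Sqstm1, which encodes the autophagy receptor p62 that binds KEAP1 and is itself an NRF2 target, lay at 6.65 and 6.58 against 4.99 and 4.93 and was 3.14-fold higher (1.65 ± 0.12, adjusted p = 0.000186). Of 11 genes of the circuit 6 were higher and 1, Keap1, was lower. Without scaling 2 were higher, and with the replicate block 7 were higher and 2 lower. In dishes none of the 11 was called higher and 3 were called lower, where 11.4% and 9.78% of all targets were.

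Glutathione transferases, which attach glutathione to reactive compounds, changed in both directions. Of 19 tested, 12 were higher and 4 lower, with a median difference of 1.14. Gsta1 and Gsta2 belong to the alpha class. Gsta1 stood at 3.08 and 2.76 against -6.80 and -6.90 in WT tumours, and Gsta2 at 2.23 and 1.76, while no WT array showed it above background. Gsta2 was thus at least 609-fold higher; such bounds divide the bright group's mean by a ceiling for each dim array, either the probe's reading there or the dimmest reading that still counted as above background, whichever was larger. Gsto1, which reduces dehydroascorbate, was 5.43-fold higher at 7.64 and 7.62 against 5.21 and 5.17, and Gstm1, of the mu class, was 3.59-fold higher. Gstp1, the pi-class enzyme, was 2.20-fold higher although it was lower in the Keap1 null dishes (-0.74, adjusted p = 0.00617). The fallers were Gstm2 (2.14-fold) and Gstm4 (1.86-fold), also of the mu class, and Gstt3 (2.06-fold), beside Gstt2, whose call of 1.45-fold ended in 7 of the alternatives. Gstm2, Gstm4 and Gstt3 had each been called higher in Keap1 null dishes, by 1.20, 0.63 and 1.12 on the log2 scale.

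Of 21 genes that supply glutathione and thioredoxin 16 were higher and 3 lower, with a median of 1.42. Slc7a11, which imports cystine, lay at 2.47 and 2.79 in Keap1 null and at -5.34 and -5.64 in WT tumours, 278-fold apart. The subunits of glutamate cysteine ligase, the first enzyme of glutathione synthesis, followed: Gclc at 4.05 and 3.78 against 0.72 and 0.49 (9.92-fold) and Gclm 9.04-fold. Glutathione synthetase itself, Gss, went the other way, 1.56-fold lower (-0.65 ± 0.12, adjusted p = 0.00694). Cytosolic thioredoxin reductase Txnrd1 was 4.15-fold and sulfiredoxin Srxn1 4.89-fold higher, while the mitochondrial reductase Txnrd2 was 1.85-fold lower. The log2 difference was larger in tumours than in dishes for Gclc (3.31 against 1.04), Gclm (3.18 against 0.97) and Slc7a11 (8.12 against 4.02), with interaction adjusted p of 0.000525, 0.000296 and 0.000152; 32.9% of all targets had a called interaction.

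Promoter sequence is shown for 3 of the called genes that hold the core of the antioxidant response element, the site bound by NRF2 with a small MAF protein. The letters searched were TGACNNNGC on both strands in the 250 bases before the RefSeq start (build GRCm38.p6), and capitals mark the match. Gclm is at chr3:122245307-122245556 on the plus strand, Txnrd1 at chr10:82858956-82859205 on the plus strand and Abcc4, described below, at chr14:118706220-118706469 on the minus strand.
Gclm: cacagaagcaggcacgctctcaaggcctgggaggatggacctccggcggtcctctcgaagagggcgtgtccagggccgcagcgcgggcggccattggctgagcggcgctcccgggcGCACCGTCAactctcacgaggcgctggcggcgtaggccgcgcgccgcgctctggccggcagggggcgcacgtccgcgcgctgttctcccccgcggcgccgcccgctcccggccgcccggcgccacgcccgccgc
Txnrd1: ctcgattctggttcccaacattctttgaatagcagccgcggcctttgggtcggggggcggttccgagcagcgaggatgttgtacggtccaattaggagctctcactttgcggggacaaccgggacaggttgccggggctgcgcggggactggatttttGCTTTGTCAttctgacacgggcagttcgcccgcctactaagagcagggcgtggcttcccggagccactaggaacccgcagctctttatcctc
Abcc4: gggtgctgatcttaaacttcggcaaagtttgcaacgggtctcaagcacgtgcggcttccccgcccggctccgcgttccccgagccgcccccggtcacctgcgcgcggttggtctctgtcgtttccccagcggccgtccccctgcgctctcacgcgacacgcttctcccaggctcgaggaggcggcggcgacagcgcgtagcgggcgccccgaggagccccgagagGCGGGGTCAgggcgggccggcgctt
Each of the 3 has 1 match, read on the opposite strand of the gene, 134, 92 and 25 bases before the start. Txnrd1 has 3 starts in the table and Abcc4 has 2, and the start with a match is shown. Across the glutathione, detoxification, heme and pentose phosphate lists, 10 of 47 called-higher genes with an entry (21.3%) held a match in this window, against 11.5% of all 27025 genes. Of the uncalled members of these lists 2 of 13 (15.4%) held a match, and of the lower members 1 of 16 (6.25%). The match describes letters in a short window and was not tested as a site.

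Enzymes and pumps that clear quinones, carbonyls and drugs rose in 13 of 21 cases and fell in 4, with a median of 0.83. Quinone reductase Nqo1, the usual readout of NRF2 activity, was 55.1-fold higher (5.78 ± 0.10, adjusted p = 5.03e-06). Aldehyde dehydrogenase Aldh3a1 was at least 65.5-fold higher, with no WT array above background. The carbonyl reductase Cbr3 was 7.57-fold and the lipid-aldehyde reductase Ptgr1 8.51-fold higher. Among efflux pumps the direction was divided: Abcc4 was 20.1-fold higher (4.33 ± 0.11, adjusted p = 8.63e-06), whereas Abcc3 was 3.66-fold and Abcg2 2.45-fold lower. Abcc3 had been 1.12 higher on the log2 scale in Keap1 null dishes.

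Heme and iron genes rose in 7 of 14 cases and fell in 3. Heme oxygenase Hmox1 was 3.13-fold higher, and the heme transporter Slc48a1 3.84-fold. Blvrb, which reduces biliverdin, was 4.63-fold higher, whereas Blvra, the other biliverdin reductase, was 1.71-fold lower. The ferritin chains Fth1 (1.86-fold) and Ftl1 (3.19-fold) rose together with the transferrin receptor Tfrc, at 1.69 and 1.76 against -0.45 and -0.49 (4.57-fold).

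In the pentose phosphate and NADPH list 9 of 16 rose and 5 fell. The rises covered the oxidative branch, with G6pdx 2.35-fold and Pgd 3.71-fold higher, and the non-oxidative branch, with Tkt 2.14-fold and Taldo1 2.76-fold. Mthfd2, the mitochondrial folate enzyme, was 2.58-fold higher after being lower in dishes (-0.90, adjusted p = 0.00163). Among the falls were Prps1 (2.86-fold) and Prps2 (2.91-fold), which turn ribose phosphate into the precursor of nucleotides. The others were the folate enzymes Aldh1l1 (5.67-fold) and Mthfd1 (-0.36 on the log2 scale) and the malic enzyme Me2 (-0.50). Me2 and Mthfd1 lost their calls with array 1 of the null tumours left out, and likewise with array 2 of the WT tumours left out. Mthfd1 was also not called with the 4 allograft arrays fitted alone or without a filter on dim probes.

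**Figure D2:**
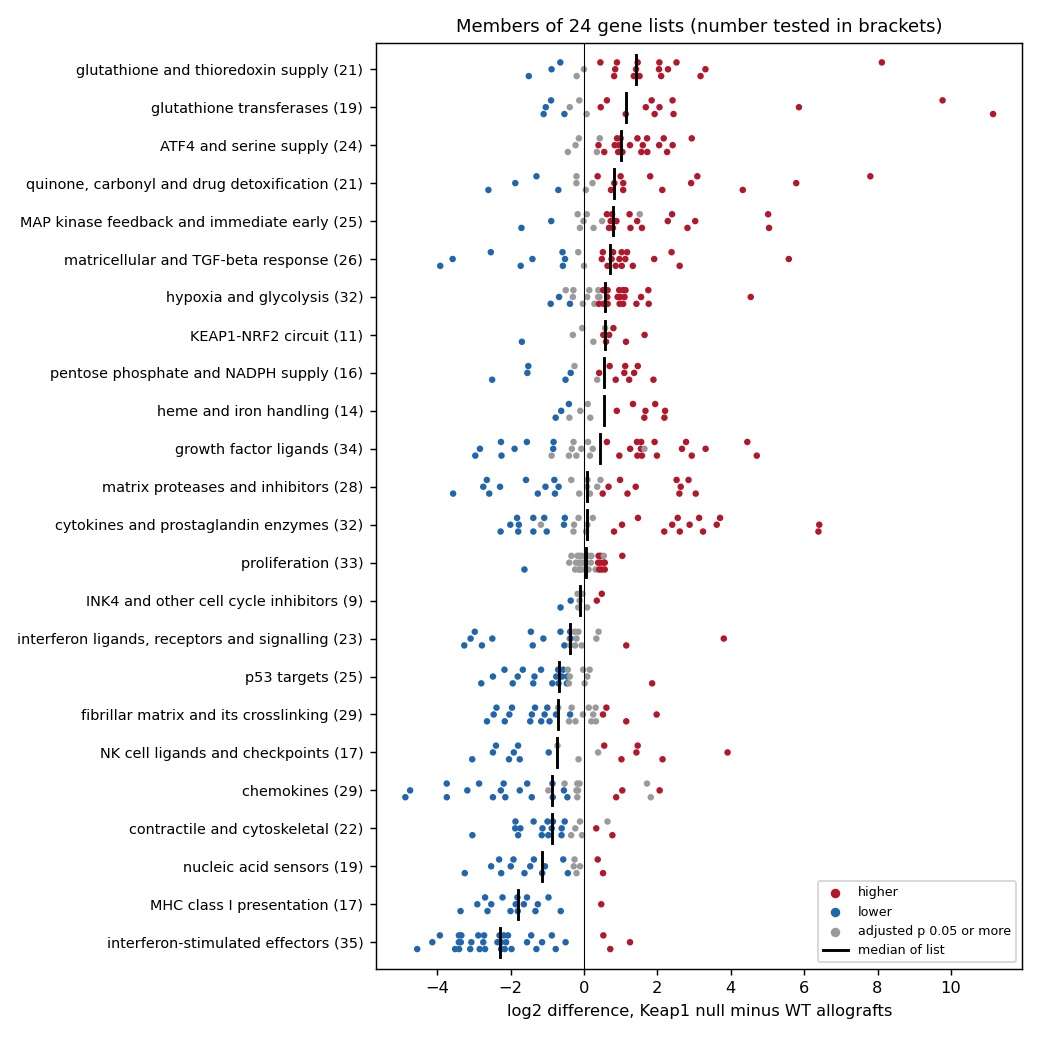
Log2 difference between Keap1 null and WT allografts (horizontal axis) for each tested member of 24 gene lists (rows, ordered by median); red points were called higher, blue lower and grey not called, and the black bar is the list's median. Medians run from 1.42 for glutathione and thioredoxin supply to -2.30 for interferon-stimulated effectors.

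Stress-response genes driven by ATF4, the factor that answers amino acid shortage and unfolded protein, rose in 19 of 24 cases and fell in none, with a median of 1.02. In dishes 16 of the same 24 were lower in Keap1 null cells and 1 higher, against 9.78% and 11.4% of all targets. Atf4 itself was at 2.85 and 2.92 against 1.97 and 1.94 (1.91-fold higher), and in dishes its difference was -0.83. Asns, which makes asparagine, was 3.04-fold higher, and Psat1, of the pathway to serine, rose 3.31-fold. The transcription factors Ddit3 (2.95-fold) and Cebpb (4.51-fold) rose as well. Fgf21, a hormone released by stressed tissue, was 7.66-fold higher in tumours (2.94 ± 0.16, adjusted p = 6.75e-05) and lower in dishes (-2.51).

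**Figure D3:**
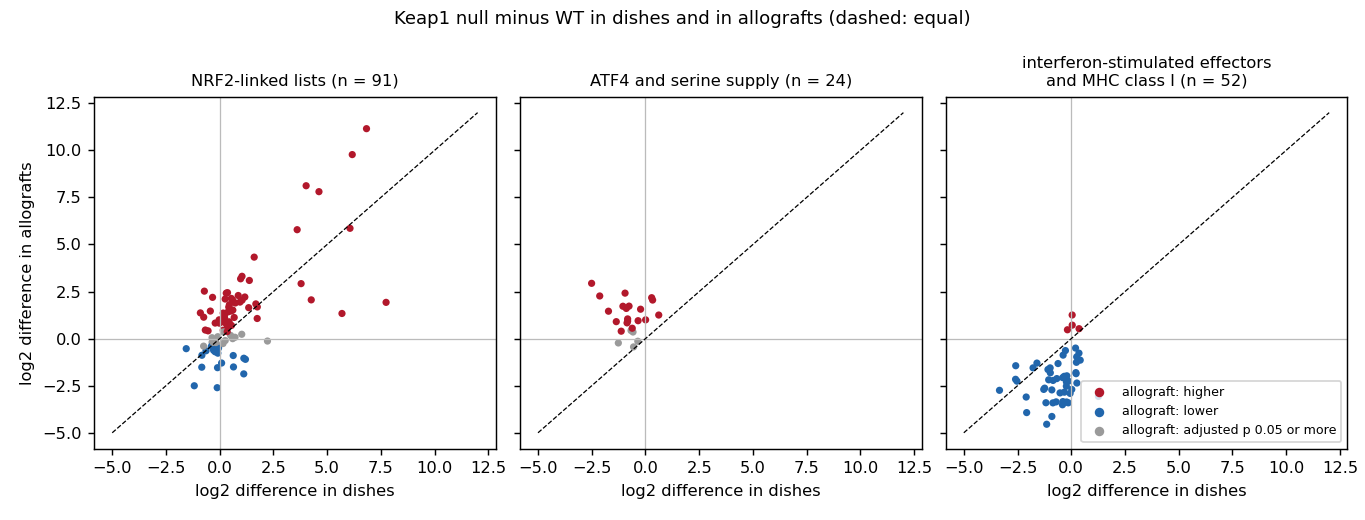
Log2 difference between Keap1 null and WT cells in dishes (horizontal axis) and in allografts (vertical axis) for the members of 3 groups of lists; colours give the call in allografts and the dashed line marks equal differences. Most genes of the ATF4 list lie in the upper left, with medians of -0.80 in dishes and 1.02 in allografts, while the interferon and class I genes lie low in allografts, and the horizontal and vertical comparisons share no arrays.

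Glycolysis and hypoxia genes rose in 19 of 32 cases and fell in 3, with a median of 0.58; 1 fell without Keap1 null array 2 or WT array 1. The pyruvate kinase Pkm was 2.94-fold and lactate dehydrogenase Ldha 2.15-fold higher, and Slc16a3, which exports lactate, 3.39-fold. Slc2a1, the glucose importer, was at 4.18 and 4.02 against 3.12 and 3.09 (1.99-fold). Bnip3, a hypoxia-induced mitophagy gene, was 3.37-fold higher. Egln3, a prolyl hydroxylase that hypoxia also induces, was 1.88-fold lower, and Car9, often used as a hypoxia marker, did not pass the test (-0.30 ± 0.36, adjusted p = 0.556).

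Among secreted products, Tac1 encodes the precursor of substance P and neurokinin A. Tac1 stood at 5.57 and 5.36 in Keap1 null and at -4.08 and -4.14 in WT tumours, 763-fold apart (9.58 ± 0.11, adjusted p = 5.03e-06), and it did not pass the test in dishes (0.11, adjusted p = 0.56). Pcsk1, a convertase that cleaves prohormones, was not above background on any dish or WT allograft array and was at least 42.5-fold higher in Keap1 null tumours. Inducible cyclooxygenase Ptgs2 showed the same layout, at 5.12 and 5.25 against -1.30 and -1.15 (85.2-fold) with no call in dishes. Ptges, which completes prostaglandin E2, was 7.35-fold higher, and the receptor Ptger4 was 3.54-fold lower.

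Cytokines moved in both directions. Of 32 cytokine and prostaglandin genes 14 rose and 11 fell, and their median of 0.07 changed sign with scaling. Il11 was 83.8-fold higher, at 4.53 and 4.35 against -1.65 and -2.24. Il6, a related ligand that signals through the same gp130 subunit, was 12.3-fold higher in tumours (0.73 and 0.86 against -2.91 and -2.74) after being lower in dishes (-1.17, adjusted p = 0.00123). The lower members included cytokines of macrophages, Il1b (2.60-fold) and Tnf (4.02-fold), neither above background on any dish array. Il15, which sustains NK cells, was 3.47-fold lower, and Tgfb3 4.83-fold. Csf1, the growth factor of macrophages, was 2.02-fold lower, at 2.12 and 1.61 against 2.90 and 2.86.

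Growth factor ligands rose in 16 of 34 cases and fell in 8, with a median of 0.43. Of the ligands of the epidermal growth factor receptor, Ereg (26.2-fold) and Areg (6.88-fold) were higher and Hbegf did not pass the test (-0.28 ± 0.11, adjusted p = 0.0802; called lower with quantile normalization, adjusted p = 0.0282). Nrg1, a ligand of the related ERBB3 and ERBB4, was 4.80-fold lower. Hgf, the ligand of MET, was at 0.02 and 0.35 against -4.43 and -4.10, 21.9-fold higher, with no call in dishes. Fgf10 was 9.95-fold higher, and Vegfa, the main angiogenic factor, 2.94-fold. The insulin-like growth factors went down: Igf1 was at -2.99 and -2.43 against 0.07 and 0.43 (7.80-fold lower) and Igf2 at -2.78 and -2.90 against -0.00 and -0.01 (7.14-fold lower). Igf2 was 4.43 higher on the log2 scale in Keap1 null dishes, where it was above background on 2 of 4 arrays, so the contrast turned round (interaction -7.27, adjusted p = 0.000131).

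Immediate early genes and feedback genes of the MAP kinase pathway rose in 16 of 25 cases and fell in 2, with a median of 0.79. The orphan nuclear receptors Nr4a1 (7.19 and 7.01 against 2.12 and 1.99) and Nr4a2 (4.32 and 4.13 against -0.56 and -1.02) were among those higher. Ier3, an early survival gene, was 8.17-fold and the ERK phosphatase Dusp4 7.06-fold higher. Sprouty genes, which restrain receptor signalling, divided, with Spry2 2.99-fold higher and Spry1 3.26-fold lower. Egr2 was 1.86-fold lower, and Myc did not pass the test (0.26 ± 0.10, adjusted p = 0.0871).

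**Figure D4:**
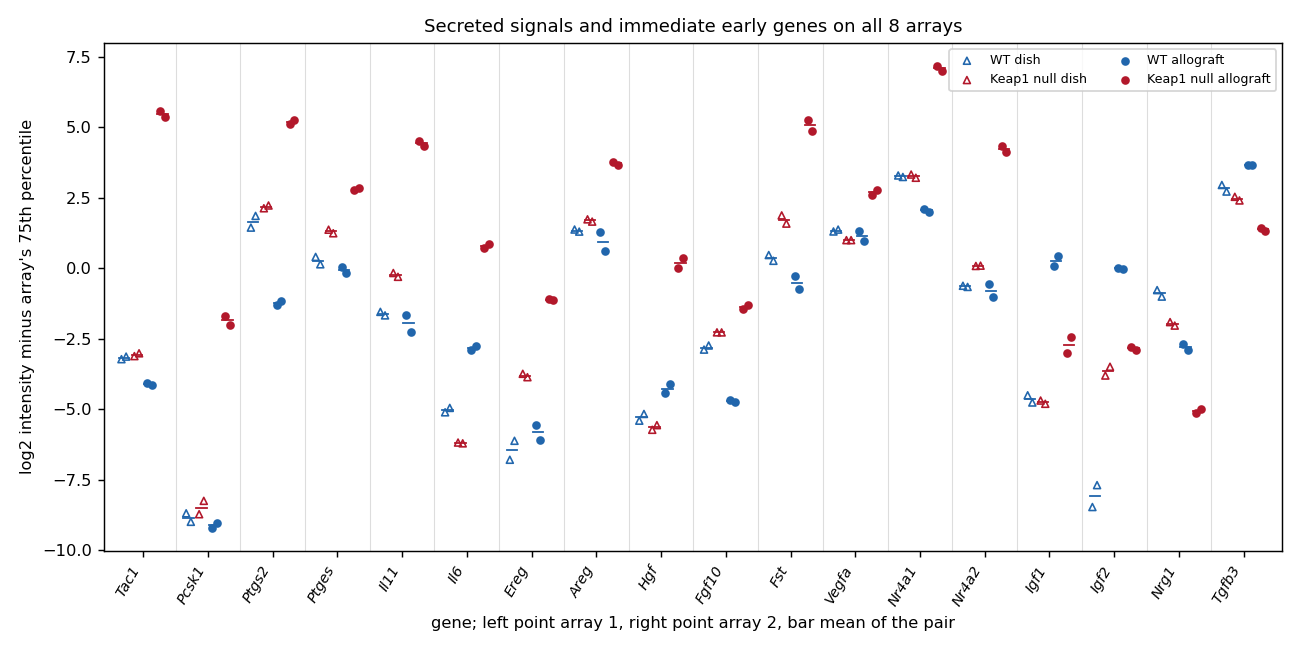
Log2 level (vertical axis; intensity minus the array's 75th percentile) of secreted signals and immediate early genes on all 8 arrays; triangles are dishes, circles allografts, red Keap1 null, blue WT, and bars mark the mean of each pair. For Tac1, Ptgs2, Il11, Il6 and Hgf the Keap1 null allograft arrays lie above all 6 other arrays, while Igf1 and Tgfb3 are highest in the WT allografts.

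Genes of the interferon response were more often called lower than higher in each list below. Among ligands, receptors and signalling genes 12 of 23 fell and 2 rose, with a median of -0.38, and 10 to 14 fell under the alternatives. Ifnb1, the interferon beta gene, was above background on both WT allograft arrays and on no other, which gives a bound of at least 2.64-fold; its call ended with another background correction (normexp, adjusted p = 0.176). Ifne, an epithelial interferon, ran the other way, at least 13.3-fold higher. The receptor genes Ifnar1 and Ifngr1 did not pass the test (-0.39 ± 0.13, adjusted p = 0.0603, and -0.25 ± 0.13, adjusted p = 0.195). For Ifnar1 4 alternatives gave a call, the replicate block among them (adjusted p = 0.0128). Downstream, Irf9 was 2.15-fold and Irf7 8.52-fold lower. Socs3, which damps signalling through gp130, was 2.22-fold higher.

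Sensors of nucleic acid followed, with 13 of 19 lower, 2 higher and a median of -1.14. Between 10 and 15 of 16 to 20 tested were lower under the alternatives, and none was higher in 6 of them, the fit without WT allograft array 2 among these. Ifih1, which senses double-stranded RNA, was 5.78-fold lower and Zbp1, a sensor of left-handed nucleic acid, 9.51-fold. Sting1, the adaptor of the cytosolic DNA pathway, did not pass the test (-0.11 ± 0.09, adjusted p = 0.394; called with quantile normalization, adjusted p = 0.0458).

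Of 35 interferon-stimulated effectors 32 were lower and 3 higher, with a median of -2.30. Isg15, a ubiquitin-like modifier, stood at -0.46 and -0.61 in Keap1 null and at 2.70 and 3.03 in WT tumours, 10.6-fold apart (-3.40 ± 0.14, adjusted p = 2.82e-05). Bst2, which tethers virions, was at 1.89 and 1.17 against 4.29 and 4.54 (7.37-fold lower). Gbp2, a guanylate-binding protein, was 8.40-fold lower in tumours and 1.26 higher on the log2 scale in dishes. The 3 exceptions were the membrane proteins Ifitm1 (2.39-fold higher), Ifitm2 (1.64-fold) and Ifitm3 (1.44-fold). The call of Ifitm3 ended in 8 alternatives, and that of Ifitm2 in the unscaled table (adjusted p = 0.122). In dishes 13 of the 35 were lower and 2 higher, with a median of -0.41.

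Promoters of 3 lower genes are shown for the core of the interferon-stimulated response element, a site bound by the IRF9-containing complex that interferon activates. The letters searched were GAAA, any 2 bases and GAAA again, on both strands in the same window of 250 bases, with matches in capitals; overlapping matches were counted. Ifit1 is at chr19:34640639-34640888 and Ifit3 at chr19:34583279-34583528, both on the plus strand, and Isg15 at chr4:156200819-156201068 on the minus strand.
Ifit1: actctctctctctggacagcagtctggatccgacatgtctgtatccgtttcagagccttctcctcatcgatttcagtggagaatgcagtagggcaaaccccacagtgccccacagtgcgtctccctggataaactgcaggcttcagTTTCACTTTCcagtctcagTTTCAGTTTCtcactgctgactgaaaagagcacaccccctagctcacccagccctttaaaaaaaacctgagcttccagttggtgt
Ifit3: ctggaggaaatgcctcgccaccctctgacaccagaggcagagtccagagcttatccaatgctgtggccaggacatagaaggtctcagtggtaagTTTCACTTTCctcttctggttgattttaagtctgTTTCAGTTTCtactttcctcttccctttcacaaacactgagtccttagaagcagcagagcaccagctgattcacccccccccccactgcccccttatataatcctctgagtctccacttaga
Isg15: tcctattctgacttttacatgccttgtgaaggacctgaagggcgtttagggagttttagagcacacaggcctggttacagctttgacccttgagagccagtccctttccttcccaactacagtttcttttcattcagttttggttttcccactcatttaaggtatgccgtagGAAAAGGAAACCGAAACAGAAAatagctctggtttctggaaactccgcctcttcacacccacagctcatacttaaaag
Ifit1 and Ifit3 hold 2 matches each on the opposite strand, and Isg15 holds 3 that overlap. Of the 25 lower effectors with an entry in the table, 13 (52.0%) held such a match, against 3.46% of all 27025 genes. Of the 3 higher effectors 1, Ifitm2, held a match. Ifit1 was 15.2-fold and Ifit3 23.4-fold lower in Keap1 null tumours.

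Genes of MHC class I presentation fell in 16 of 17 cases, 1 was higher and the median was -1.81. All 17 were above background on every dish array. The classical heavy chain H2-K1 was at 3.71 and 3.58 against 6.30 and 6.39 (6.48-fold lower), and its partner B2m at 4.67 and 4.54 against 5.87 and 5.99 (2.50-fold). The peptide transporter Tap1 was 10.3-fold and the immunoproteasome subunits Psmb8 and Psmb9 5.77-fold and 7.51-fold lower. Nlrc5, the transactivator of class I genes, was 4.66-fold lower. The exception was the chaperone Calr, 1.39-fold higher, a call that ended in the unscaled table (adjusted p = 0.381).

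Ligands of NK cells and checkpoint molecules had no common direction, with 6 of 17 higher and 8 lower. Cd55, which blocks complement, was 15.1-fold higher, at 0.64 and 0.46 against -3.13 and -3.60. Pvr, the poliovirus receptor that NK cells read through DNAM-1 and TIGIT, was 4.41-fold and Cd47, a signal against phagocytosis, 2.69-fold higher; both were lower in dishes. Cd274, which encodes PD-L1, was 1.95-fold lower, without a call when Keap1 null allograft array 2 was left out (adjusted p = 0.0535). The costimulator Cd80 was 5.28-fold and the arginase Arg1 8.26-fold lower.

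Chemokines were lower in 17 of 29 cases and higher in 3, with a median of -0.86. The interferon-induced ligands of CXCR3 fell: Cxcl10 was at -0.43 and -0.36 against 2.46 and 3.11 (9.06-fold lower), and Cxcl9 was above background on the WT allograft arrays alone, at -2.80 and -2.04. Ccl5 was 13.4-fold and Ccl2, the ligand of CCR2, 2.92-fold lower, though Ccl2 had been 1.90 higher on the log2 scale in dishes. Cxcl12, which retains leukocytes and stem cells, was also 13.4-fold lower, at -0.66 and -0.45 against 3.16 and 3.21. The 3 risers, Cxcl5 (4.17-fold), Cxcl3 (2.06-fold) and Cxcl1 (1.84-fold), are among the ligands of the neutrophil receptor CXCR2; the call of Cxcl1 ended in 3 alternatives. Other ligands of that receptor, Cxcl2 (-0.16 on the log2 scale) and Ppbp (1.72), were not called.

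Leukocyte markers changed beside the interferon, class I and chemokine genes. Of 27 macrophage and monocyte markers 22 were lower and 2 higher, with a median of -2.12, and the log2 of their summed level was 6.60 and 6.61 in Keap1 null against 7.44 and 7.58 in WT tumours. Of the 27, 17 were above background on no dish array, so they could enter the test only through an allograft group. These 17 gave 16 of the 22 falls. With probes above background on all 8 arrays, 5 of 8 were lower and 2 higher, and the median was -1.82. The marker of resident macrophages Adgre1 was at -0.25 and -0.21 against 2.98 and 3.32. Cx3cr1, the fractalkine receptor of monocytes and macrophages, stood at -0.01 and -0.18 in WT tumours and above background on no other array, at least 99.9-fold lower. Ly6c2, named for inflammatory monocytes, was 2.62-fold higher, and as it was above background on all dish arrays its signal is not limited to host cells. NK and T cell markers were lower in 18 of 24 cases and higher in 2, with a median of -2.07 (-1.06 where dim genes take their bounds). With another background correction (normexp) 10 were lower and the median was -0.31. The summed log2 level of the 24 markers was 0.83 and 0.80 against 2.26 and 2.36. Of the 24, 14 were above background on no dish array, so they could enter the test only by being bright in an allograft group. These 14 gave 12 of the 18 falls. With probes above background on all 8 arrays, 3 of 7 were lower and 2 higher, and the median was -0.17. Ncr1, the NK receptor NKp46, was at least 9.57-fold lower, Gzma 14.5-fold and Il2rb, a subunit of interleukin receptors, 9.68-fold. Of the defining markers of these lists, Ncr1 and the T cell genes Cd3g and Cd8a were above background on both WT and on neither Keap1 null array; Cd3g was not called, and the call of Cd8a ended with normexp (adjusted p = 0.975) and without the filter on dim probes (adjusted p = 0.754). Whether fewer leukocytes had a part in the lower interferon, class I and chemokine genes was not tested.

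Genes of MHC class II and dendritic cells were lower in 10 of 15 cases and higher in 2, with a median of -2.10 (-1.69 where dim genes take their bounds, and -1.27 with normexp). Of the 15, 8 were above background on no dish array, so they could enter the test only by being bright in an allograft group. These 8 gave 7 of the 10 falls. With probes above background on all 8 arrays, 3 of 7 were lower and 2 higher, and the median was -0.15. H2-Ab1 was at -0.00 and 0.08 against 2.50 and 2.58, 5.66-fold lower, and the transactivator Ciita was 4.28-fold lower. B cell markers were lower in 2 of 8 cases, where 21.3% of all targets were called lower, and Cd79b was 4.10-fold lower. Without Keap1 null array 1 there were 2 higher and 2 lower, and without Keap1 null array 2 there were 4 lower.

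Granulocyte markers were more often higher than lower. Mast cell, eosinophil and basophil markers were higher in 8 of 12 cases and lower in 1, with a median of 2.94 (2.32 where dim genes take their bounds, and 1.49 with normexp). Mast cell proteases were among them: Mcpt4, a chymase of connective tissue mast cells, was at 2.13 and 1.34 against -2.57 and -2.26 (17.8-fold higher), Cpa3, a carboxypeptidase, at 0.88 and 0.43 against -3.10 and -2.75 (11.9-fold), and Tpsb2, a tryptase, at 0.16 and -0.64 against -4.09 and -3.76 (12.8-fold). Mcpt4 and Cpa3 were above background on no dish array. Hdc, which makes histamine, was 12.1-fold higher (3.60 ± 0.21, adjusted p = 9.56e-05). As Hdc was above background on all dish arrays, its signal is not limited to host cells. For each of these 4 genes both Keap1 null arrays lay above both WT arrays, array 1 highest. Mcpt8, a basophil protease, was 3.42-fold lower. With each allograft array left out in turn, 8 or 9 were higher and 1 lower.

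Neutrophil markers were higher in 6 of 15 cases and lower in 3, with a median of 0.26, which was 0.48 and 0.49 without Keap1 null array 1 or WT array 2 and 0.03 without scaling. Without any of Keap1 null array 1, WT array 1 or WT array 2, 4 were higher. S100a8 was 4.27-fold higher, at -0.20 and -0.06 against -2.31 and -2.14, whereas the receptor Csf3r was 2.82-fold and the collagenase Mmp8 4.88-fold lower. Their summed log2 level was 3.56 and 3.66 against 1.99 and 2.19. Mmp9, which is in the list and was 5.75-fold higher, was above background on 2 of 4 dish arrays and higher there too (3.66).

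**Figure D5:**
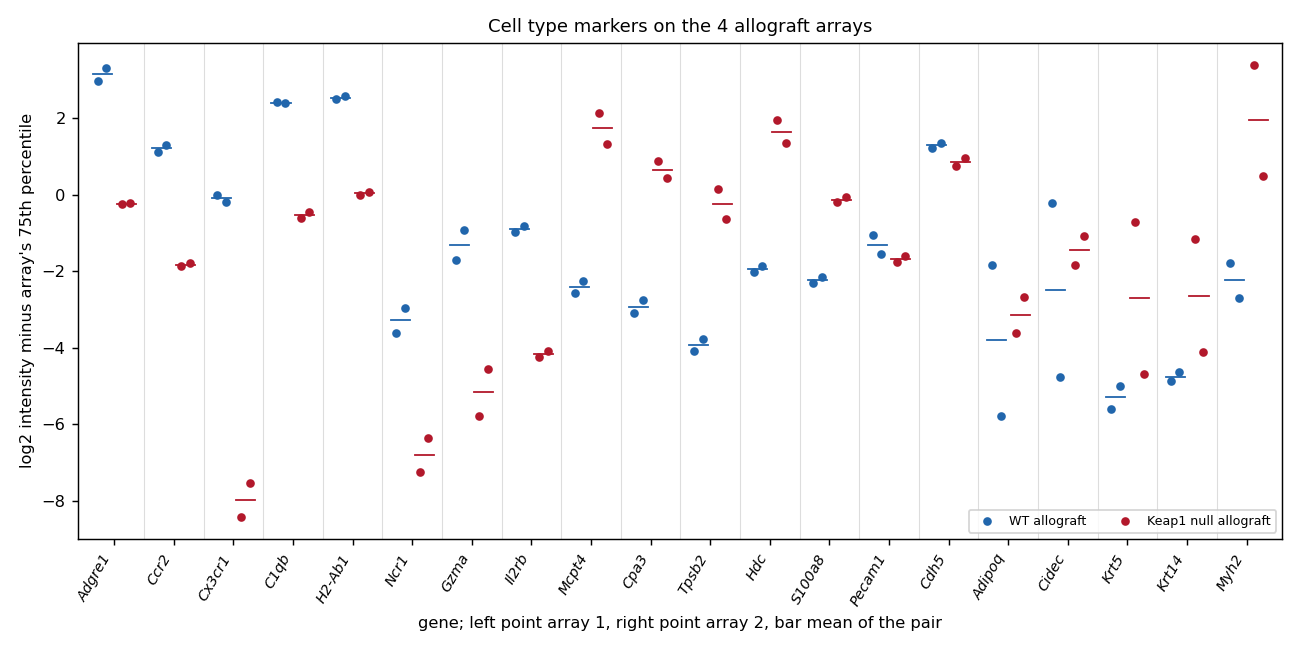
Log2 level (vertical axis; intensity minus the array's 75th percentile) of cell type markers on the 4 allograft arrays, red Keap1 null and blue WT, array 1 left and array 2 right, with the mean of each pair as a bar; levels compare within a gene only. Macrophage and NK markers are lower and mast cell markers higher on both Keap1 null arrays, while WT array 2 is low for Adipoq and Cidec and Keap1 null array 1 is high for Krt5, Krt14 and Myh2.

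Some arrays stood apart in markers of neighbouring tissue. Krt5 and Krt14, keratins of the basal epidermis, were at -0.71 and -1.17 on Keap1 null array 1, against -4.70 and -4.10 on array 2 and -5.59 to -4.64 on the WT arrays. The summed log2 level of 15 keratinocyte markers was 4.37 and 3.93 against 2.84 and 2.58. In dishes it was 3.39 and 3.27 in Keap1 null against 2.57 and 2.53 in WT cells. In tumours 5 of the 15 were higher and 2 lower. Of these, 4 and 2 were among the 11 markers above background on all 4 dish arrays, so their signal is not limited to skin. Without Keap1 null array 2 there were 10 higher, and without array 1 there were 4 higher and 5 lower. Loricrin (Lor) was at 0.69 and -3.84 against -0.51 and -0.59. Skeletal muscle markers were summed at 5.33 and 3.95 against 3.03 and 1.77, with 5 of 21 higher, 8 without Keap1 null array 2 and 2 without WT array 2. Myh2, a fast myosin, was at 3.38 and 0.50 against -1.77 and -2.70, and was not called without WT array 2 (adjusted p = 0.086). Adipocyte markers were summed at 4.51 and 4.64 against 4.53 and 3.28, with Adipoq at -1.83 on WT array 1 and -5.78 on WT array 2. Of 15 adipocyte markers 3 were higher and none lower. The adipocyte median of 0.658 became 1.42 without WT array 1 and -0.855 without WT array 2. Beside these keratinocyte, muscle and adipocyte counts, 20.5% of all targets were called higher and 21.3% lower. The part of these tissues in other results was not tested.

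Of 23 endothelial markers 7 were lower and 1 higher, with a median of -0.35, and with each allograft array left out 2 or 3 were lower (3 higher without WT array 1). Pecam1 (-0.38 ± 0.20, adjusted p = 0.187) and Cdh5 (-0.44 ± 0.15, adjusted p = 0.0573) did not pass the test, though 7 alternatives called Cdh5. The lymphatic and macrophage receptor Lyve1 was 4.52-fold lower, at -3.08 and -1.93 against -0.37 and -0.28. Red cell and platelet markers had 1 of 10 higher and 1 lower, with counts of 0 to 3 when each array was left out. Schwann cell and nerve markers were divided, 3 of 11 higher (1 without Keap1 null array 1) and 3 lower, with S100b 10.9-fold higher. The Y-linked genes Ddx3y and Eif2s3y were above background on no dish array and stood at -2.26 and -2.05 against -1.10 and -0.95, and at -1.80 and -1.72 against -0.97 and -0.48. Both were called lower, Eif2s3y not without Keap1 null array 1 (adjusted p = 0.0573) or WT array 2 (0.0501).

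Stromal genes shared by pericytes and fibroblasts had 9 of 22 higher and 8 lower. The mesenchymal transcription factors Twist2 (4.57 and 4.69 against 1.36 and 1.28, 9.93-fold) and Prrx1 (8.27-fold) were higher. Pericyte markers went both ways. Notch3 was 3.83-fold and Pdgfrb 2.57-fold lower, and both had been higher in Keap1 null dishes, by 1.57 and 2.32 on the log2 scale. Cspg4 and Kcnj8 were called higher, by 1.13 and 0.71 on the log2 scale, and Abcc9 was not called (0.17). The list's median of 0.02 changed sign in 6 alternatives.

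Collagens, elastic fibre proteins, fibronectin, proteoglycans and crosslinkers of the matrix fell in 15 of 29 cases and rose in 4, with a median of -0.70 (-0.40 with normexp). Without Keap1 null array 1, or without scaling, 2 rose. Col5a2 was at 1.43 and 1.75 against 3.72 and 3.77 (4.47-fold lower), Loxl3, a lysyl oxidase, was 5.51-fold lower, and the proteoglycan Bgn 5.22-fold. Decorin (Dcn) was 3.94-fold higher. Matricellular and TGF-beta response genes rose in 16 of 26 cases and fell in 8, with a median of 0.70; without scaling 9 rose. Fst, which binds activins, stood at 5.27 and 4.88 against -0.27 and -0.75, 47.9-fold higher, and Thbs2 was 6.09-fold and tenascin C (Tnc) 3.77-fold higher. Ltbp2, a binding protein of microfibrils, was at -1.19 and -1.22 against 2.77 and 2.66 (15.1-fold lower) after being 2.97 higher on the log2 scale in dishes, and Ccn2 was 5.82-fold lower. Periostin (Postn) fell from 5.14 and 5.58 in WT to 1.39 and 2.17 in Keap1 null tumours.

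Contractile genes fell in 15 of 22 cases and rose in 2 (none without Keap1 null array 1), with a median of -0.86. Myl9, the regulatory light chain of myosin, was at -0.45 and -0.12 against 2.68 and 2.84 (8.24-fold lower), and the kinase Mylk and calponin Cnn1 were 3.65-fold and 3.33-fold lower. Proteases and their inhibitors had 10 of 28 higher and 11 lower. The stromelysin Mmp10 was 6.21-fold and Mmp19 7.21-fold higher, while Mmp12, the macrophage elastase, was 11.9-fold lower and above background on no dish array. Plaur, the urokinase receptor, was 6.06-fold higher and its ligand Plau 2.39-fold lower, and Timp3 was 6.71-fold lower.

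Of 25 targets of p53 17 were lower and 1 higher, with a median of -0.69. Ccng1 was at 0.99 and 1.18 against 3.00 and 3.06 (3.84-fold lower), Btg2 4.49-fold and the death receptor Fas 5.59-fold lower, and Perp, an adhesion gene of stratified epithelium, 3.62-fold higher. Fas was 1.81 and Ccng1 0.66 higher on the log2 scale in Keap1 null dishes. Among 9 INK4 and other cell cycle inhibitors 2 were higher and 2 lower, with 0 to 2 in either direction under the alternatives, and Cdkn2a itself did not pass the test (0.09 ± 0.21, adjusted p = 0.78).

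Of 33 proliferation genes 10 were higher and 1 lower, with a median of 0.06; 7 were higher and 5 lower with quantile normalization, and 1 and 1 in the unscaled table. With each allograft array left out 4 to 8 were higher, the fewest without WT array 1. Mki67 did not pass the test (0.06 ± 0.11, adjusted p = 0.717). Ccnb1, the mitotic cyclin, was 2.06-fold higher, and Ccnd2, a cyclin of cell cycle entry, 3.08-fold lower (-1.62 ± 0.09, adjusted p = 8.43e-05).

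Large differences were also measured in genes outside the lists. Fndc3c1 was at 3.22 and 3.31 and above background on no WT allograft array, at least 1469-fold higher, and Hoxd13, a gene of the distal limb, was at 1.52 and 1.52 against -9.27 and -6.64 with 1 WT array above background. Its log2 difference ranged from 6.16 to 10.8 over the alternatives. Car8 was at least 425-fold, Hkdc1, a hexokinase-like gene, at least 242-fold, Igsf11 at least 164-fold and Atp13a4 at least 135-fold higher. Fndc3c1, Hoxd13, Car8, Hkdc1 and Igsf11 were called higher in Keap1 null dishes as well, whereas Atp13a4 was not (-0.20, adjusted p = 0.711). On the lower side were Krt7, a simple-epithelium keratin, at -5.32 and -4.88 against 1.07 and 1.35 (79.4-fold), Igsf5 (72.5-fold), Robo3, a guidance receptor (68.2-fold, with 1 Keap1 null array above background), and at the bounds Tbx20, a cardiac factor (at least 22.1-fold), and Hoxb13, the most caudal gene of its cluster (at least 23.8-fold). Igsf5 and Tbx20 were lower in dishes as well, while Krt7 was not called there (-0.30, adjusted p = 0.336).

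Among genes not above background on any dish array, some were many times higher or lower. Spink6, a protease inhibitor of skin, was at 0.32 and 0.06 and at least 174-fold higher, Dipk1c at least 60.5-fold, Gldn, a protein of nodes of Ranvier, at least 59.2-fold, and Krt6a, a keratin of injured epidermis, at least 48.0-fold. Krt6a was at -1.67 on both Keap1 null arrays, whereas the basal keratins Krt5 and Krt14 were high on array 1 alone. Beside Cx3cr1, those lower included Rflna (at least 72.5-fold), Gpr34, a receptor of microglia and macrophages (33.5-fold), and Cilp, a matrix protein of cartilage and fibroblasts (30.0-fold). Fcrls, another macrophage and microglia gene, which was above background on all dish arrays, was 62.9-fold lower (-5.98 ± 0.35, adjusted p = 9.52e-05).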

How the data were processed

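RNA of 8 samples was measured on 1-colour Agilent arrays, 2 per group. The deposited scanner files hold spot intensity values, background-subtracted in Feature Extraction (Agilent, version 10.7.3.1), per the file headers. For each array, log2 of the processed intensity minus the array's 75th percentile over non-control spots was taken here. Probes entered the test if both arrays of at least 1 of the 4 groups, dishes included, showed them above background (30358 of 41174). Targets above background on no dish array could therefore enter only through an allograft group. The brightest tested probe stood for a target, which left 22922 targets, 14857 with a symbol and 8065 without. In 38 of 5725 targets with several probes, probes were called in opposite directions. The fit was limma 3.58.1 in R 4.3.3 over all 8 arrays as 4 group means, with 4 residual degrees of freedom and Benjamini-Hochberg adjustment over all targets; it was tested on simulated data.

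The members and lists were chosen with earlier results of these data known. Named genes were Keap1 and Nfe2l2, the largest called rises and falls over all targets and in each dish class, and, for each list, its defining members and up to 4 called members with the largest rise and fall. Kcnj8, Abcc9, Ppbp and Mthfd1 were named after their values were seen. Promoters and gene names came from RefSeq (GRCm38.p6), while the headers name mm9, so coordinates describe RefSeq only. Arrays with the same replicate number shared a slide, so the replicate block and the slide block are the same fit. Deviations of the number 1 arrays correlated at 0.246 to 0.428, and the main fit has no block. Alternatives covered background, scaling, filter, probe choice, arrays fitted, block and each allograft array left out. The normexp alternative (offset 50) used the median spot signal in place of the planned mean signal. The deposited value table differed from the processed intensity by at most 0.496% and carries no scaling between arrays. The number of arrays limits the precision. A few genes are not reported here.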

Additional observations from a re-analysis of the deposited data

Results flagged for a closer look

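For 18 of the genes described, the difference between the lines was called in opposite directions in dishes and in tumours, each at least 2-fold, and the difference between these contrasts was itself called (interaction, limma, Benjamini-Hochberg over all targets; 32.9% of all targets had a called interaction). Values are the log2 difference in tumours minus that in dishes. Genes higher in Keap1 null tumours but lower in Keap1 null dishes were Fgf21 (5.44), Hdc (4.88), Il6 (4.78), S100a8 (4.24) and Pvr (3.19). Genes lower in tumours but higher in dishes included the matrix and contractile genes Ltbp2 (-6.89), Myl9 (-5.97) and Bgn (-4.73), and the pericyte genes Pdgfrb (-3.68) and Notch3 (-3.51). Of secreted factors, Igf2 (-7.27), Il15 (-3.81) and Ccl2 (-3.45) turned the same way, as did the immune and death genes Gbp2 (-4.33) and Fas (-4.30). Among detoxification genes Abcc3 (-2.99), Gstm2 (-2.30) and Gstt3 (-2.17) did so. Fgf21, S100a8, Igf2 and Il15 were not above background on every one of the 8 arrays, so their values here rest in part on dim readings. Host cells are present in tumours alone, and their part in these differences was not tested.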

How the results depend on the processing

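Of 193 called genes named, a count that leaves out Kcnj8 and Mthfd1, 180 kept their direction and call under all 14 settings that could be run for them. The other 13 lost the call in at least 1. Of these 1, Cd8a, changed sign, to 0.00733 with normexp, as did the uncalled Cd3g, to 0.0214, and the uncalled Cxcl2, to 0.0458. With the unscaled value table, 2262 targets were higher in place of 4688, and 1500 in place of 3741 among those detected on all dish arrays. With normexp 447 targets of the class on no dish array were lower in place of 790 and 578 higher in place of 527, so rises outnumbered falls there. Without a filter on dim probes 32301 targets were tested and the median over all targets was 0.13. In the class on no dish array 887 were then higher and 889 lower. The causes were not tested. The filter on all 8 arrays gives no value for the class on no dish array, and the fit of 4 allograft arrays no interaction. With the replicate block 5696 targets were higher and 5723 lower, and the interaction was called for 9380 in place of 7530. Leaving out each allograft array, which leaves a lone array assumed to vary like the other groups, gave 3515 to 3777 higher and 3598 to 4502 lower. Uncalled genes changed sign: Mki67 to -0.128 (quantile), -0.0236 (dish-detected probes) and -0.169 (unscaled), and Cdkn2a to -0.139 (unscaled). With each allograft array left out in turn, Mki67 ranged from -0.0375 to 0.152, Cdkn2a from -0.218 to 0.393 (-0.0131 without WT array 1), Cxcl2 from -0.493 to 0.168 (the highest without Keap1 null array 1), Car9 from -0.635 to 0.0277, Lor from -3.29 to 1.24, Adipoq from -1.32 to 2.63 and Cidec from -1.24 to 3.32. The highest of Lor came without Keap1 null array 2, and the lowest of Adipoq and Cidec without WT array 2.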
